A study of Arabidopsis thaliana with 3 samples.

Results

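In RNA of Arabidopsis seedlings, 8 of 10 genes for alpha-expansins formed a ladder of levels between 110 FPKM (EXPA8) and 7.08 FPKM (EXPA10), while the root hair pair EXPA7 and EXPA18 lay at 1.53 and 1.15 FPKM. The genes are EXPA1, EXPA3, EXPA4, EXPA5, EXPA6, EXPA7, EXPA8, EXPA10, EXPA11 and EXPA18, chosen by their loci as alpha-expansins known from growing organs and root hairs. All 10 were found among the 27374 loci of the files. FPKM is the number of fragments per length of transcript and per size of library, and it was summed over the transcripts of each locus. Levels of different genes can thus be set side by side, although biases particular to a gene remain. The 3 libraries form 1 group of whole wild-type (Col-0) seedlings of Arabidopsis thaliana, without any mutant or treated sample. The plants were 9 days old, and on their MS plates long days of 16 h light alternated with nights of 8 h (23 °C). Nothing in the labels says that the libraries came from separate cultures, so every SD and p-value measures only the spread between these libraries. Because whole plants were used, the levels average over organs, and the organs in the working name of the genes could not be checked one by one.

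Expansins are secreted proteins that let the cellulose network of the plant cell wall slide and stretch, without cutting its polymers, and they work best at acid pH. Their genes form alpha and beta families and small groups of expansin-like genes. Growing cells of hypocotyls, leaves and roots use different alpha-expansins. EXPA7 and EXPA18 are known from root hair cells, EXPA10 from the growth of leaves and petioles, EXPA1 from guard cells, and EXPA5 from growth under brassinosteroids. The transcription factor HBI1 is known to bind the promoters of EXPA1 and EXPA8.

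A pair of sequence sets shows how the genes relate to each other. The genes lie on chromosomes 1, 2 and 3. EXPA1 (AT1G69530), EXPA10 (AT1G26770), EXPA11 (AT1G20190), EXPA7 (AT1G12560) and EXPA18 (AT1G62980) are on chromosome 1. EXPA8 (AT2G40610), EXPA6 (AT2G28950), EXPA3 (AT2G37640) and EXPA4 (AT2G39700) are on chromosome 2, and EXPA5 (AT3G29030) is on chromosome 3. For each gene, RefSeq's model of the transcript with the highest mean was used, in TAIR10.1. In these models all 10 genes have 3 coding exons, and their coding lengths run from 750 to 789 bases. Some other models of EXPA1, EXPA3, EXPA10 and EXPA11 have other coding sequences, of 582 to 828 bases. Each coding sequence used held the codons of the His-Phe-Asp motif of expansins once, at codon 123 in EXPA10 to codon 135 in EXPA3. The motif is shown in capitals for the closest pair in coding sequence, EXPA1 and EXPA10, and for the root hair pair, EXPA7 and EXPA18, with 24 coding bases on each side.
EXPA1 (TAIR10.1 chr1:26142474-26142530, plus strand): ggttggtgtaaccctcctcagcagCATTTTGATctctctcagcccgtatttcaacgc
EXPA10 (TAIR10.1 chr1:9260223-9260279, plus strand): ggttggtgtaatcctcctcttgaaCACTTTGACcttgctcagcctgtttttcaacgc
EXPA7 (TAIR10.1 chr1:4277196-4277252, plus strand): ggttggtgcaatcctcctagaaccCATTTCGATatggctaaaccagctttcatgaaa
EXPA18 (TAIR10.1 chr1:23332340-23332396, plus strand): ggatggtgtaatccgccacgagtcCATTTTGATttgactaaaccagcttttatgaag
Over these 57 bases EXPA1 and EXPA10 differed at 11 positions, the fewest of all 45 pairs, and EXPA7 and EXPA18 differed at 12. The median pair differed at 20 positions and the most distant one at 29.

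The 250 bases before the annotated start of the same genes are given because the root hair pair shares an element there. Capitals mark the match to the root hair element in EXPA7 and EXPA18.
EXPA7 (TAIR10.1 chr1:4276255-4276504, plus strand): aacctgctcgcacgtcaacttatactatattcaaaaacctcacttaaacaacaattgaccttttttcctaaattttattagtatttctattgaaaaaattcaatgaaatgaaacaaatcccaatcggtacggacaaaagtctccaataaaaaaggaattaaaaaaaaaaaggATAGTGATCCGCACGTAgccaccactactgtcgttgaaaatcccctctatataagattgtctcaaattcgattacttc
EXPA18 (TAIR10.1 chr1:23331313-23331562, plus strand): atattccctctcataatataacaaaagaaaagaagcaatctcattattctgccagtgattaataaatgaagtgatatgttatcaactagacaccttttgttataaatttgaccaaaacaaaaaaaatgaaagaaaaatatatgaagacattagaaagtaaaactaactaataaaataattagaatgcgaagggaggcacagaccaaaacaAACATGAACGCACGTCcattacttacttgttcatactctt
The root hair element was searched on both strands. It lay on the strand of the gene, from 78 to 62 bases before the start in EXPA7 and from 40 to 25 bases before it in EXPA18. The match of EXPA18 lies inside AT1G62978, a gene annotated on the opposite strand. None of the other 8 genes held it in this window, and 0.754% of 27443 promoters of protein-coding genes did. The element was first described from the promoter of EXPA7 and from genes like it, so its presence in this pair is not independent of its definition. In both genes a match to CGTGCG on the other strand lay inside the element. CGTGTG or CGTGCG, known as sites of brassinosteroid-regulated factors, occurred in 4 of the 10 promoters (EXPA1, EXPA6, EXPA7 and EXPA18) and in 6.71% of all promoters. The only match of EXPA18 was the one inside its root hair element, so this count is not independent of that element. EXPA7 held another match, from 242 to 237 bases before its start. The auxin response element TGTCTC occurred in EXPA5, EXPA6, EXPA7 and EXPA10 and in 10.9% of all promoters. The E-box CANNTG occurred in 7 of the 10 and in 55.3% of all, and TATAAA in 5 of the 10 and in 47.3% of all. The G-box CACGTG, a special case of the E-box, occurred in 0 of the 10 and in 6.49% of all. A match of letters does not show that a factor binds.

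For EXPA1 and EXPA10, capitals mark the longest stretch that both windows share.
EXPA1 (TAIR10.1 chr1:26141476-26141725, plus strand): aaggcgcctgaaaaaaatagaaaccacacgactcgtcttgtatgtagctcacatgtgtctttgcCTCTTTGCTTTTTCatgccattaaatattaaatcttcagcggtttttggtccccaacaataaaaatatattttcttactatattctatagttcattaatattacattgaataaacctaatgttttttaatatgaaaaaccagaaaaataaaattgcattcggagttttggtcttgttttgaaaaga
EXPA10 (TAIR10.1 chr1:9259182-9259431, plus strand): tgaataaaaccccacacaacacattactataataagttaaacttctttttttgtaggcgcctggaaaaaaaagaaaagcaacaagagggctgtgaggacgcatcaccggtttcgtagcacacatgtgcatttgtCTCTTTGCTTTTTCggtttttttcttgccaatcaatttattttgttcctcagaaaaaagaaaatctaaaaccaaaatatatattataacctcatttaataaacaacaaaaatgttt
The shared stretch of 14 bases lay 186 bases before the start of EXPA1 and 116 bases before that of EXPA10, and it was the longest among the 45 pairs of windows. The next longest, 12 bases, were found between EXPA3 and EXPA10 and between EXPA4 and EXPA18. How long a stretch unrelated promoters share was not computed, so no role is read from these stretches.

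EXPA8, at bases 16948791 to 16950705 of chromosome 2, was the most abundant of the 10, with 110, 113 and 107 FPKM in libraries 1, 2 and 3. It averaged 110 ± 3.15 FPKM (SD, n = 3), the 97.3rd percentile among 26693 nuclear protein-coding genes. EXPA1 had 86.5, 84.6 and 91.7 FPKM and averaged 87.6 ± 3.69 FPKM (96.5th percentile). The lowest library of EXPA8 exceeded the highest of EXPA1, so the values of these genes did not overlap. Together EXPA8 and EXPA1 made up 51.9 ± 0.370% of the summed FPKM of the 10 genes.

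EXPA6 followed with 58.0, 62.1 and 56.3 FPKM, a mean of 58.8 ± 3.01. EXPA3 (EXP3 in the RefSeq table) had 40.4, 44.6 and 42.7 FPKM and a mean of 42.6 ± 2.14. Library 2 was the highest for both genes, as it was for EXPA8. EXPA4 had 34.7, 29.8 and 33.5 FPKM, a mean of 32.7 ± 2.53, and library 2 was its lowest. EXPA11 had 27.6, 27.6 and 26.2 FPKM, a mean of 27.1 ± 0.799. These 4 genes lay between the 87.6th and 94.5th percentiles, and no library of one overlapped the values of the next.

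EXPA5 had 13.0, 12.2 and 11.99 FPKM and averaged 12.4 ± 0.531 (73.8th percentile). EXPA10, the gene of leaf and petiole growth, had 7.17, 6.58 and 7.50 FPKM and averaged 7.08 ± 0.463 (61.1st percentile). EXPA8 was 15.5 times as high as EXPA10, with ratios of 15.4, 17.2 and 14.2 in the single libraries. In all, 7 of the 10 genes had a mean of at least 10 FPKM, against 31.0% of nuclear protein-coding genes. The 10 genes were chosen as known ones, so this count is a description of them.

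The root hair pair stood below the rest. EXPA7, at bases 4276505 to 4277969 of chromosome 1, had 1.25, 1.73 and 1.61 FPKM, a mean of 1.53 ± 0.250 (37.6th percentile). EXPA18, at bases 23331563 to 23333246 of chromosome 1, had 1.61, 0.641 and 1.20 FPKM, a mean of 1.15 ± 0.484 (35.1st percentile). Their values overlapped, since EXPA18 was higher in library 1 and EXPA7 in libraries 2 and 3. EXPA10, the next gene above, was 4.63 times as high as EXPA7, and EXPA8 was 72.0 times as high as EXPA7 and 95.9 times as high as EXPA18. The ratio of EXPA8 to EXPA18 was 68.8, 176 and 89.3 in libraries 1, 2 and 3, so it moved with the spread of EXPA18. Together EXPA7 and EXPA18 made up 0.703 ± 0.0732% of the summed FPKM of the 10. In whole seedlings, a small share of root hair cells and little RNA per cell cannot be told apart.

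**Figure D1:**
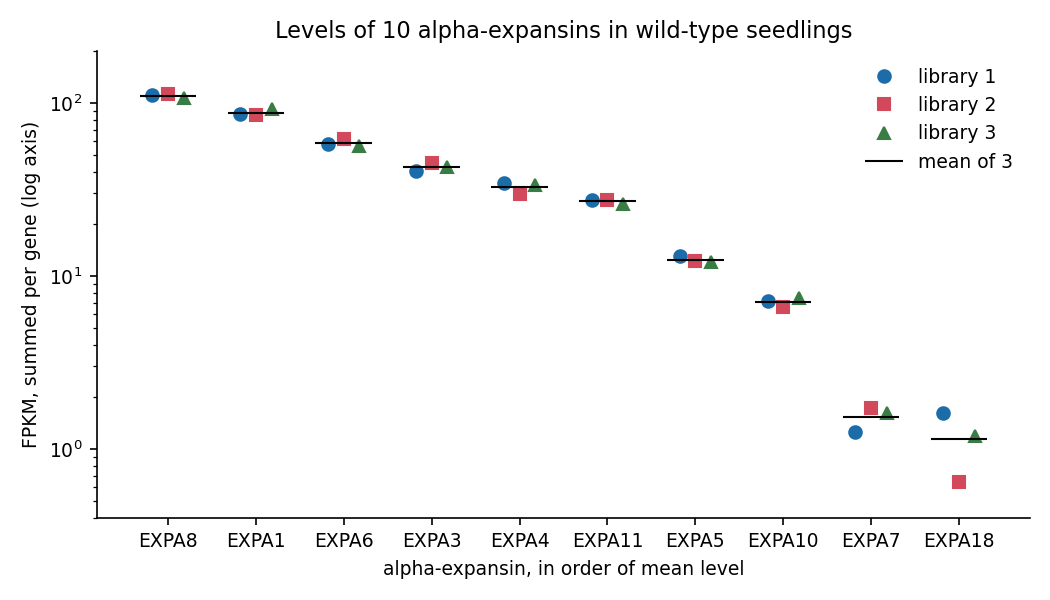
Level of each of the 10 alpha-expansins in FPKM (log axis) in the 3 wild-type libraries (symbols), with the mean of 3 as a line, in order of the mean. Values step down from 110 FPKM for EXPA8 to 7.08 FPKM for EXPA10, and EXPA7 and EXPA18 lie at 1.53 and 1.15 FPKM with overlapping libraries.

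Neighbours in this order were compared to see which levels differ beyond the spread between libraries. For each pair, the difference in log2(FPKM + 1) was taken within each library, and limma was fitted to such differences between the lower neighbour and each of 17867 other genes whose mean reached 1 FPKM. Benjamini-Hochberg adjustment ran over all genes of that fit, with 0.05 as the threshold. Differences on this scale understate those of low genes, and the order itself fixed their sign. A bias of a single gene that is the same in every library does not enter the SE or the p-value. A pass therefore concerns the measured FPKM, and narrow steps may not reflect the amounts of RNA. Of the 9 pairs of neighbours, 8 passed, and the higher gene was above the lower one in 3 of 3 libraries in each of these 8. In the same fits 89.9% to 99.0% of all genes were called different from the lower neighbour in one direction or the other, so the count of 8 is near the background of these fits.

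At the top, EXPA8 exceeded EXPA1 by 0.33 on the log2 scale (SE 0.058, limma adjusted p = 9.3e-05), in a fit where 5.41% of all genes were called above EXPA1 and 99.0% were called in either direction. EXPA1 exceeded EXPA6 by 0.57 (SE 0.073, limma adjusted p = 3.4e-08), and 8.00% of all genes were called above EXPA6. These steps correspond to ratios of 1.26 and 1.49 between the means.

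In the middle, EXPA6 exceeded EXPA3 by 0.46 (SE 0.074, limma adjusted p = 1.8e-06). EXPA3 exceeded EXPA4 by 0.37 (SE 0.076, limma adjusted p = 1.1e-06), with 0.21, 0.57 and 0.34 in libraries 1, 2 and 3. In these fits 10.9% of all genes were called above EXPA3 and 14.3% above EXPA4. EXPA4 exceeded EXPA11 by 0.26 (SE 0.058, limma adjusted p = 0.00269), against 17.7% of genes called above EXPA11 and 96.4% in either direction. This was the smallest step that passed, 0.11 in library 2 and 0.32 and 0.34 in libraries 1 and 3.

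Further down the steps were wider. EXPA11 exceeded EXPA5 by 1.07 (SE 0.049, limma adjusted p = 2.2e-08), with 36.4% of genes called above EXPA5. EXPA5 exceeded EXPA10 by 0.73 (SE 0.067, limma adjusted p = 6.6e-10), with 54.9% of genes called above EXPA10. EXPA10 exceeded EXPA7 by 1.68 (SE 0.12, limma adjusted p = 1.9e-42), the widest step of the order, and 89.4% of genes were called above EXPA7. Each fit shares the noise of its lower gene, so little is read from a very small p, and the order had already fixed the direction. On simulated data, such fits called genes without a true difference at a rate above 0.05 for most lower genes tried. These lower genes were all of nearly the same level. The threshold limits false calls among all calls, and that share was not computed. The adjusted p-values of the narrow steps may still be too small.

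EXPA7 and EXPA18 did not pass, with a difference of 0.26 (SE 0.26, limma adjusted p = 0.34) that was -0.21 in library 1, 0.73 in library 2 and 0.25 in library 3. In that fit 89.9% of genes were called above EXPA18. Without library 2 the difference was 0.02 (limma adjusted p = 0.938), and without library 1 the mean of EXPA18 was under 1 FPKM and the pair was not tested. The 3 libraries did not resolve the order of these genes.

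**Figure D2:**
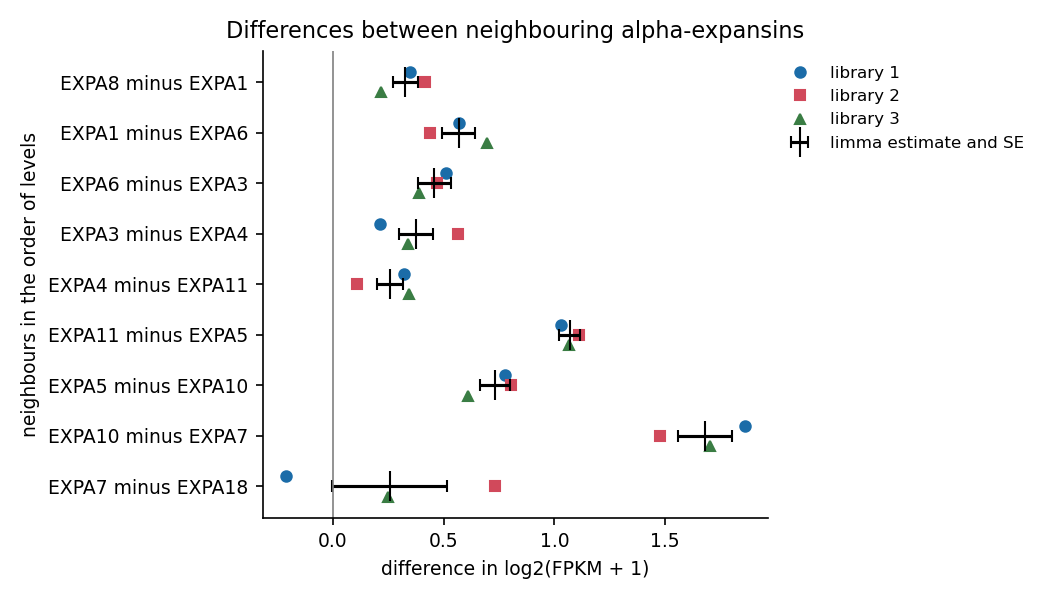
Difference in log2(FPKM + 1) between neighbours in the order of levels, higher minus lower mean, with 1 symbol for each library and the limma estimate with its SE as a bar. All libraries lie above 0 in the 8 upper pairs, and EXPA7 minus EXPA18 runs from -0.21 to 0.73.

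The libraries gave nearly the same total for the 10 genes, 381, 383 and 379 FPKM in libraries 1, 2 and 3. None of the 10 had its highest and lowest library more than 1 apart in log2(FPKM + 1), where 0.655% of the 17868 genes above the minimum did. EXPA18 came closest, at 0.67, a ratio of 2.51 between its libraries, and it was the only 1 of the 10 more than 0.5 apart, against 4.73% of genes. With a pseudocount of 0.1, EXPA18 was more than 1 apart, as were 1.71% of genes. Its SD was 42.2% of its mean, and 88.8% of the 500 genes of nearest level varied less. The SD of EXPA7 was 16.3% of its mean, close to the median of 14.8% among genes of its level. The 8 other genes had SDs of 2.86% to 7.75% of their means. EXPA8 and EXPA11 were the steadiest, with 20.6% and 27.0% of genes of like level varying less, and in EXPA4 78.2% did.

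**Figure D3:**
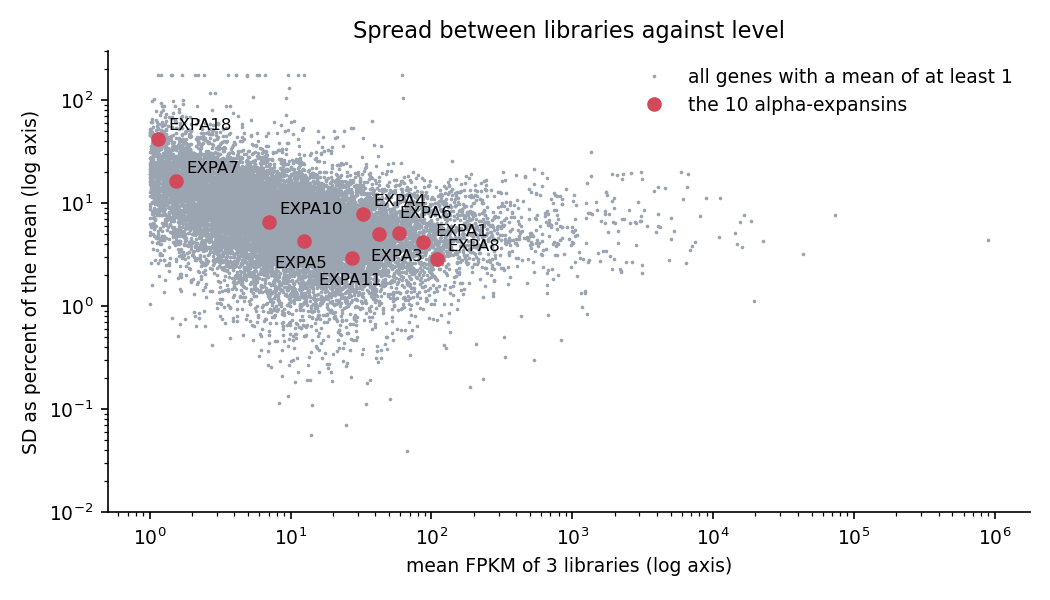
SD over the 3 libraries as a percentage of the mean, against mean FPKM (both log axes), for all genes whose mean reached 1 FPKM (grey) and the 10 alpha-expansins (red, named). EXPA18, at 42.2%, varied more than 88.8% of the 500 genes of nearest level, and the other 9 lie between 2.86% and 16.3%.

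Transcript forms were listed for 2 of the 10 genes. EXPA1 has 5 in the files, and form 2 held 78.5, 78.7 and 85.6 FPKM, or 92.4% of the gene. Each of the other 4 forms averaged 2.51 FPKM or less. In TAIR10.1, form 2 spans bases 26141726 to 26143538 of chromosome 1 in 4 exons, starts upstream of the other forms and encodes the same coding sequence as form 1. Forms 3, 4 and 5 have other coding sequences, of 828, 663 and 738 bases. EXPA10 has 2 forms, and the first held 6.65, 5.18 and 6.62 FPKM against 0.518, 1.41 and 0.882 FPKM for the second. The second form thus took 7.22%, 21.4% and 11.8% of the gene in libraries 1, 2 and 3. The division of reads between forms that share most exons is an estimate of the authors' program, and low forms are the least certain.

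Close relatives in sequence were not always close in level. Coding identity over the 45 pairs ran from 58.8% to 78.9%, with a median of 63.6%. EXPA1 and EXPA10, the closest pair, differed 12.4 times in mean FPKM. EXPA6 and EXPA4, at 77.6% identity, differed 1.80 times, and EXPA7 and EXPA18, at 74.8%, differed 1.33 times. Between this root hair pair and the other 8 genes, identity was 58.8% to 64.0% over 16 pairs. Among those 8 it was 60.9% to 78.9% over 28 pairs. Pairs share genes and are not independent, so these values are a description.

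**Figure D4:**
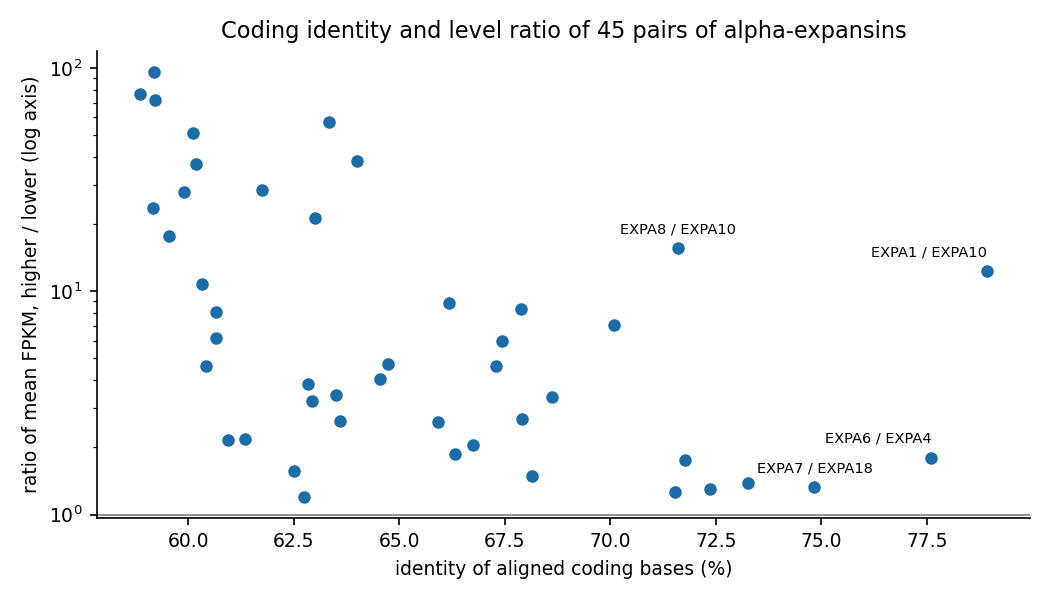
Ratio of mean FPKM, higher over lower gene (log axis), against identity of aligned coding bases for the 45 pairs of the 10 alpha-expansins, 1 point a pair. EXPA1 and EXPA10 share 78.9% of bases at a ratio of 12.4, whereas EXPA6 and EXPA4, and EXPA7 and EXPA18, lie at 1.80 and 1.33.

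The transcripts were also compared in sequence, but how far reads were shared between genes was not tested. The longest exact stretch common to the transcripts of any pair was 32 bases, between EXPA1 and EXPA10. Matches of at least 90% identity elsewhere in the genome covered 4.52% of the transcript of EXPA1, 4.35% of that of EXPA10, 4.06% of that of EXPA5 and none of the other 7. The only genes that overlap an annotated neighbour are EXPA7 and EXPA18, each on the opposite strand. EXPA7 overlaps AT1G12570 by 23 bases, and this gene had 0.811, 0.731 and 0.892 FPKM. EXPA18 overlaps AT1G62978 by 46 bases, and that gene was listed at 0 in all 3 libraries. The libraries keep strand, per the labels' protocols, but whether strand was used in the counting is not given in the sources used here.

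The other genes of the family were lower than most of the 10. Of the 16 other alpha-expansins, 15 were in the files, with a median of 0.364 FPKM against 29.9 FPKM for the 10, and 5 of the 15 had a mean of at least 1 FPKM. Over all genes in the files the median was 3.81 FPKM, and 65.3% reached a mean of 1 FPKM. EXPA13 was highest, with 8.29, 6.91 and 7.53 FPKM. EXPA15 had 7.43, 5.68 and 7.29 FPKM and EXPA9 had 3.63, 3.92 and 4.21 FPKM. EXPA13 had a higher mean than EXPA10, and all 5 (these 3, EXPA14 and EXPA20) had higher means than EXPA7 and EXPA18. The last 2 of them are named after their values were seen, and none of these differences was tested. EXPA12, EXPA17, EXPA22, EXPA23, EXPA24, EXPA25 and EXPA26 were listed at 0 in all libraries, as were 4506 of all 27374 genes. An entry of 0 can be a failed estimate. The 10 genes held 94.3 ± 0.354% of the summed FPKM of the 25 alpha-expansins in the files, and 74.9 ± 0.481% of that of all 35 expansins and expansin-like genes.

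Other classes of expansins held single genes at the level of the middle of the ladder. Among 6 beta-expansins, EXPB3 had 40.6, 37.9 and 42.3 FPKM, close to EXPA3, and EXPB1 had 2.84, 3.39 and 2.80 FPKM. EXPB2, EXPB4, EXPB5 and EXPB6 were listed at 0. Of the 4 expansin-like genes, EXLA1 had 32.2, 32.1 and 27.5 FPKM, EXLB1 22.3, 27.3 and 20.4 FPKM and EXLA2 5.53, 6.31 and 5.30 FPKM.

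Root hair genes lay near EXPA7 and EXPA18 for the most part. Of 21 genes of root hair growth, 11 had a mean of at least 1 FPKM and 2 of at least 10, with a median of 1.05 FPKM, where 65.3% and 30.9% of all genes reached these levels. Their summed level was 89.1, 88.4 and 92.5 FPKM in libraries 1, 2 and 3, and 2 genes held most of it. These were SCN1, a regulator of small GTPases, at 48.2 ± 0.809 FPKM, and CSLD3, a cellulose synthase-like gene, at 14.4 ± 0.230 FPKM. The lowest was LRX2, a leucine-rich repeat extensin, at 0.405 ± 0.00596 FPKM. The root hair element was found before 6 of the 21 (LRX1, PRP1, PRP3, RHS13, RHS15 and RHS18) and before 0.754% of all promoters. Since the element was described from root hair genes, this count is not independent of its definition. The 203 genes with the element and a value had a median of 3.10 FPKM, against 3.81 FPKM for all genes.

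Regulators of root hairs were lower still. Of 9 basic helix-loop-helix genes, 2 had a mean of at least 1 FPKM, against 65.3% of all genes, and the median was 0.392 FPKM. LRL1 had 3.77 ± 0.545 and LRL2 1.73 ± 0.303 FPKM, and RSL5 was listed at 0 in all libraries. RSL4, known as an activator of root hair growth and named here after its values were seen, had 0.214, 0.445 and 0.518 FPKM. Of the 8 regulators with a value above 0, 4 were lowest in library 1 and 4 in library 2. Most of them averaged under 1 FPKM, where the order of libraries is uncertain. The same count over all genes was not made, so nothing is read from it. Of 10 general markers of roots, 6 had a mean of at least 1 FPKM, near the 65.3% of all genes. PYK10, a beta-glucosidase of root and hypocotyl ER bodies, had 1009 ± 52.9 FPKM, the phosphate exporter PHO1 14.3 ± 1.03, and the nitrate transporter NRT2.1 (NRT2:1 in the table) was lowest at 0.0292 ± 0.00101. The part that the share of root tissue in each library plays in EXPA7 and EXPA18 was not tested.

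Most of the listed partners of expansins in wall growth were abundant. The lists were chosen and do not hold whole families, so the counts describe only the listed genes. The 20 listed xyloglucan endotransglucosylases, which cut and rejoin the polymers that coat cellulose, had a median of 14.9 FPKM. Of these, 19 had a mean of at least 1 FPKM and 4 of 100 or more, against 65.3% and 3.34% of all genes. XTH12, XTH13, XTH14, XTH26 and the pump gene AHA7 were placed in the root hair list instead, at 0.811, 0.462, 4.13, 0.420 and 1.61 FPKM. XTH4 had 279 ± 12.3 FPKM and XTH22 (TCH4 in the table), known to respond to touch, 209 ± 10.5, both above EXPA8, and XTH21 was lowest at 0.331 ± 0.0740. Of 11 genes of acid growth, all had a mean of at least 1 FPKM and 10 of at least 10, against 30.9% of all genes at 10 or more. The proton pump genes AHA1 and AHA2 (HA1 and HA2 in the table), whose products acidify the wall, had 200.2 ± 5.09 and 94.2 ± 5.71 FPKM. SAUR10, of a family that activates these pumps, was lowest at 2.04 ± 0.507. The SAUR genes of this list are short and alike, so the split of reads among them is uncertain.

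**Figure D5:**
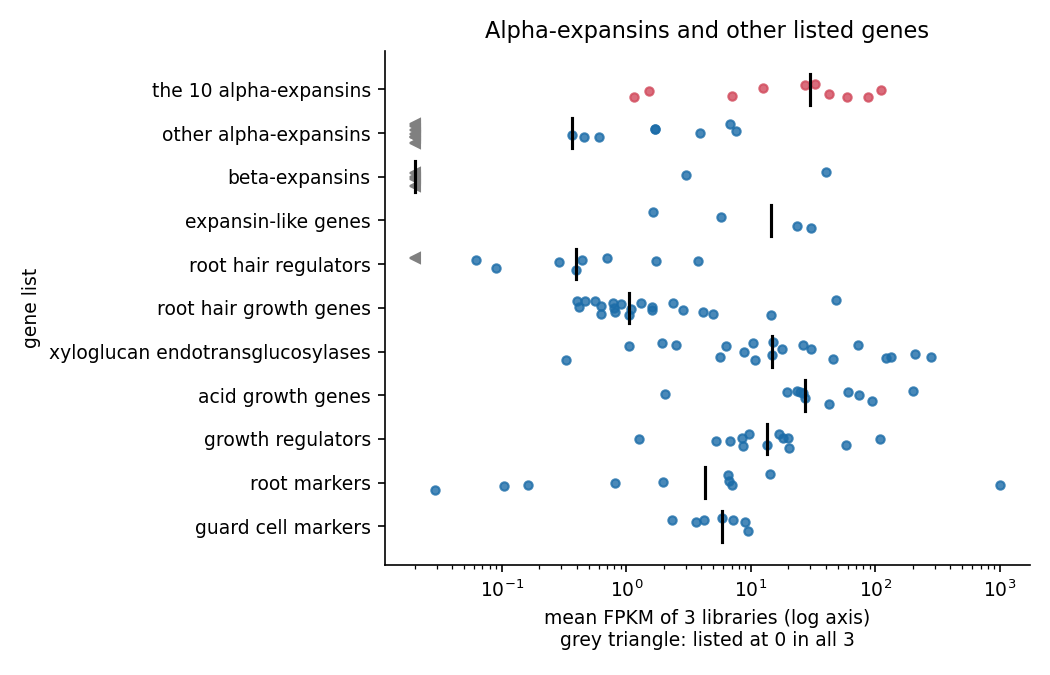
Mean FPKM of 3 libraries (log axis) for the 10 alpha-expansins (red) and the genes of 10 other lists (blue), 1 point a gene, with the median of each list as a black line and genes listed at 0 in all libraries as grey triangles. The 10 have a median of 29.9 FPKM, near the acid growth genes at 27.1 FPKM, and EXPA7 and EXPA18 fall among the root hair growth genes, whose median is 1.05 FPKM.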

How the data were processed

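From whole wild-type seedlings, 3 Illumina libraries that keep strand were made after removal of ribosomal RNA, per the labels' protocols. The files deposited by the authors hold 1 value per transcript for 36172 transcripts, without a stated unit. The values were taken as FPKM made by the authors, since they are not whole, never negative and sum to 2064646, 2000114 and 1957870, and since the submitters' processing notes name Cufflinks 2.1.1, beside TopHat2 2.0.9 and the build TAIR10. The annotation, any filters and the handling of reads with several matches are not stated.

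Read depth is not stated. Low values of genes with 1 transcript lay at whole multiples of a fitted step within 0.05 in 49.4%, 47.9% and 50.0% of cases. For a step fixed beforehand, 10% would by chance. The step was chosen to make this percentage as high as possible, so the chance level for it is higher and was not computed. As the other low values did not lie at whole multiples, reads could not be counted back. Neither a counting interval nor a count test is given. Between libraries, log2(FPKM + 1) of the tested genes had a median absolute difference of 0.093 to 0.103, and no library repeats another.

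Values were summed per locus. limma 3.58.1 in R 4.3.3 (intercept model, empirical Bayes with trend) was used with a pseudocount of 1 and a minimum mean of 1 FPKM, and was tested on simulated data first. Replicate numbers name libraries of 1 group. Gene structures, promoters and coding sequences are RefSeq's, of TAIR10.1, whose name differs from that of the authors' build, and coding sequences were aligned in full with biopython 1.88. Second matches came from BLAST+ 2.17.0. The genes and lists were chosen with earlier results of these data known. All 10 genes were named, with the 3 highest genes and those at 0 of the other expansin classes, and the 2 highest and the lowest of each other list. Outside this rule, EXPA14, EXPA20, RSL4, MYB60, XTH12, XTH13, XTH14, XTH26, AHA7 and the listed genes with the root hair element were also named. Alternatives were other pseudocounts, filters, variances, scalings and transcripts, and leaving out each library.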

Additional observations from a re-analysis of the deposited data

How the results depend on the processing

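Of 9 pairs of neighbouring genes, 8 passed with all libraries, and 8 passed without each library in turn, with a pseudocount of 0.1, with no filter on low values, with another variance prior, and with the highest transcript of each gene in place of the sum. With a minimum of 5 FPKM the 7 pairs above EXPA7 were left, and all 7 passed. The ratio within a library already pairs the values, and a fit with the unpaired variances of both genes, without the replicate block, also gave 8 calls. No difference changed sign under these settings. The step from EXPA4 to EXPA11 ran from 0.21 to 0.33 without each library in turn, with limma adjusted p-values of 0.000357 to 0.0268. That from EXPA3 to EXPA4 ran from 0.28 to 0.45 in the same settings, with limma adjusted p-values of 7.2e-05 to 0.00291. That from EXPA7 to EXPA18 was 0.46 with a pseudocount of 0.1 (limma adjusted p = 0.364). The count of genes with libraries far apart, 0 of 10, became 1 with a pseudocount of 0.1 and 1 with a limit of 0.5, EXPA18 both times. It stayed at 0 without each library in turn and with nuclear genes scaled to the same sum, which moved libraries by at most 0.03 on the log2 scale. With the highest transcript only, EXPA1 had 81.0 and EXPA10 6.15 FPKM, a larger shift than the SD of each. The 3 libraries and the unknown depth limit what can be said of EXPA7 and EXPA18.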

Other observations

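Regulators of cell growth were measured beside the alpha-expansins. All 13 had a mean of at least 1 FPKM, against 65.3% of all genes, with a median of 13.5 FPKM. HBI1, which is known to bind the promoters of EXPA1 and EXPA8, led the list with 103, 115 and 108 FPKM, near EXPA8 and above EXPA1. A role of HBI1 in the levels of these genes was not tested. BES1, a transcription factor of brassinosteroid signalling, had 62.3, 58.3 and 54.3 FPKM, and PRE5 was lowest with 1.01, 2.005 and 0.801 FPKM.

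The 7 markers of guard cells, the cells in which EXPA1 is known to act, lay between 2.34 and 9.57 FPKM, with sums of 42.1, 42.7 and 41.0 FPKM in libraries 1, 2 and 3. BLUS1 (AT4G14480), a kinase of blue-light opening, had 9.57 ± 0.412 FPKM, FAMA (FMA in the table), a factor of guard cell identity, 9.06 ± 0.572, and the kinase gene HT1 2.34 ± 0.323. Single markers went different ways between libraries. In library 3, FAMA was at its lowest, 8.53 FPKM, and MYB60, named after its values were seen, was at its highest, 4.47 FPKM. The share of EXPA1 that came from guard cells was not tested.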
